A study of Mus musculus with 6 samples.

Results

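Cholesterol and long-chain fatty acids are the main lipids a glial cell builds for its membranes, and 35 genes of their synthesis were followed here in sorted cortical cells of the mouse. All 35 were found by symbol among the 24421 genes of the deposited table. They were chosen by name as genes of these pathways, with earlier results of these data known. They fall into 2 sets, 22 genes of sterol synthesis with its SREBP regulators and 13 genes of fatty acid synthesis, elongation, desaturation and activation. The cells came from CD51-Flp mice given a viral vector, AAV-GFAP-FSF-hM3D-mCherry, after birth. Where Flp is made, from the gene of CD51 (integrin alpha V), the vector expresses under the GFAP promoter the red marker mCherry and hM3D, a Gq-coupled designer receptor that clozapine-N-oxide (CNO) activates. The CNO group was given CNO and the saline group saline between postnatal days 7 and 21, with 2 doses each day, and mCherry-positive astrocytes of the cortex were sorted on day 21. Both groups carried the receptor, and no group had CNO alone, so actions of the drug itself and of the Gq receptor cannot be told apart. RNA-seq gave 3 libraries per group, CNO 1, 2 and 3 and saline 3, 4 and 5. The labels name no strain or sex and do not say whether a library is 1 animal or a pool.

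Sterols are built from acetyl-CoA through HMG-CoA, mevalonate, isoprenoid units and squalene to lanosterol, which is then trimmed to cholesterol. The transcription factor SREBP2 (gene Srebf2) drives these genes when membrane sterol is low, SREBP1 (Srebf1) acts more on fatty acid genes, and INSIG1 holds both in the endoplasmic reticulum when sterol is plentiful. Cholesterol does not cross the blood-brain barrier, so the brain makes its own. Oligodendrocytes need large amounts of it for myelin, and astrocytes are a source of it for neurons. Fatty acids are built to palmitate by FASN, then lengthened by ELOVL enzymes, desaturated by SCD and FADS enzymes and activated by acyl-CoA synthetases.

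Promoter DNA of the SREBP targets carries short elements that help to show what this group of genes shares. SREBP binds sterol regulatory elements, and it works together with the factor NF-Y, which binds the box CCAAT, and with Sp1, which binds GC boxes. RefSeq windows of 300 bases on GRCm38.p6, 250 bases before to 50 after a gene's start, matched 28 of the 35 genes. None matched Sqle, Fdft1, Fdps, Stard4, Scd1, Scd2 or Fads1, so the motif shares leave these genes out. The windows below belong to the 3 genes with a window whose CNO libraries all stood above the saline libraries (values further down). They show every window of these 3 with a CCAAT match on either strand. Capitals mark CCAAT, written ATTGG where the box lies on the other strand, and the sterol element TCACNCCAC.
Hmgcs1 promoter window, chr13:119690101-119690400, + strand: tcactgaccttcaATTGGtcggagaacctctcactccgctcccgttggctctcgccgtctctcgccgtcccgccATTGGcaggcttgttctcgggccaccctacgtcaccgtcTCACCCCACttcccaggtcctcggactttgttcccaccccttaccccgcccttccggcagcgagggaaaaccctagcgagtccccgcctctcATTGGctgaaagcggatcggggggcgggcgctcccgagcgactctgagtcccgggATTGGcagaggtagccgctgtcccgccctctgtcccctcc
Insig1 promoter window, chr5:28071162-28071461, + strand: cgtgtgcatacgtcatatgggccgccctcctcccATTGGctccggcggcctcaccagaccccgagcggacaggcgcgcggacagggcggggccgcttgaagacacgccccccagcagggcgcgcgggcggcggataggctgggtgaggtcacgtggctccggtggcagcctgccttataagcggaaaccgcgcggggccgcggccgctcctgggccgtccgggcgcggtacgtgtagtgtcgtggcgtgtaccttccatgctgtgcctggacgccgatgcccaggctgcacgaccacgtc
Srebf1 promoter window, chr11:60222532-60222831, - strand: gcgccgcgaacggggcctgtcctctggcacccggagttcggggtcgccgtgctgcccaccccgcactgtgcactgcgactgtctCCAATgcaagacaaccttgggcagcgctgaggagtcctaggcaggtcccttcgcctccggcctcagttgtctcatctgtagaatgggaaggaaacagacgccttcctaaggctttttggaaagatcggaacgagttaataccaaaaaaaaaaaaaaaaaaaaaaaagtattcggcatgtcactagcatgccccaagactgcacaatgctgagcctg
Srebf1 promoter window, chr11:60210422-60210721, - strand: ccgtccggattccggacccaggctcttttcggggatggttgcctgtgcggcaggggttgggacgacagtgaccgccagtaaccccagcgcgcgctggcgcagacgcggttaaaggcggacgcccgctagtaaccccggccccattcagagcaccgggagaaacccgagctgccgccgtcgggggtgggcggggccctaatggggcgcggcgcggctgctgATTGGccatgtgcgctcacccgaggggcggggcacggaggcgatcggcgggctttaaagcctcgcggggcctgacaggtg

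The Hmgcs1 window held 4 CCAAT boxes, all on the other strand, and 1 match to TCACNCCAC. The Insig1 window held 1 CCAAT box, and 2 of the 3 Srebf1 windows held 1 each. Among the genes with a window, 17 of 18 in the sterol set (94.4%) and 6 of 10 in the fatty acid set (60.0%) had CCAAT on either strand, beside 42.6% of the 9855 tested genes with a window. The longer form GCCAATC, which contains CCAAT, was present for 11 of the 18 sterol genes (61.1%) and 1 of the 10 fatty acid genes (Elovl5), beside 11.5% of tested genes. GGGCGG, the GC box, was present for 17 of 18 (94.4%) and 5 of 10, beside 67.9%. TCACNCCAC matched in the sterol set for Hmgcs1 alone, beside 1.45% of tested genes, and for 0 of 10 fatty acid genes. The overlapping spelling TCACCCNAC matched for Hmgcs1 and Nsdhl, beside 1.34% of tested genes. These matches describe letters in a fixed window and say nothing of binding in these cells.

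Several facts of the whole series touch every value that follows. Libraries held 12010901 to 19224186 reads, except for CNO 1 with 3908076, in which 1 read was worth 4.23 normalized counts (0.503 to 0.970 in the others). The median log2 fold change over the 13028 tested genes, those averaging 10 normalized counts or more, was -0.89. It was -0.92 with TMM scaling, -1.52 with every library scaled to the same total and -0.08 with quantile normalization. Genes with a low mean had lower fold changes, with a median of -2.28 for means of 10 to 100 and 0.33 for means of 1000 to 10000. Of 12 astrocyte markers, 12 had reads in every library, and their summed level ran from 181876 to 625144 normalized counts in CNO and from 200143 to 301203 in saline. Oligodendrocyte markers summed to more than astrocyte markers in every library, at 1841017 to 3487358 in CNO and 525544 to 754645 in saline. Of these 12 markers, 7 were higher in CNO without overlap, 2 passed the test (Mbp and Mobp), and Mag and Aspa were at 0 in CNO 1. Of all tested genes 4.57% were higher without overlap (38.3% of those with means above 10000), and 0.0154% passed. Among 12 astrocyte markers 1 was higher without overlap and 0 lower. Among 12 microglia and macrophage markers 2 were higher and 1 lower. Xist exceeded 10000 normalized counts in CNO 2, CNO 3 and saline 4, that is in 2 CNO libraries and 1 saline library. In a bulk sample, fewer cells of a type and less RNA per cell cannot be told apart.

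No gene of either set passed the test between CNO and saline. With limma at an adjusted p under 0.05, 0 of 22 sterol genes and 0 of 13 fatty acid genes passed, where 0.0154% of tested genes did (2 of 13028). At an unadjusted p under 0.05 limma gave 4 members, all higher in CNO (Hmgcs1, Insig1, Scd1 and Scd2), and 0 lower, where 2.28% of tested genes were higher and 7.25% lower. On whole reads DESeq2 also called 0 members, where 1.91% of tested genes were called (0.53% higher and 1.38% lower), and limma-voom 0, where 0.123% were. edgeR called 0 members and 0 of the tested genes. The members' standard errors ran from 0.35 to 2.37 on the log2 scale.

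In 6 of the 35 genes every CNO library stood above every saline library, and in 0 every CNO library stood below. These were Hmgcs1, Insig1 and Srebf1 of the sterol set and Scd1, Scd2 and Fads1 of the fatty acid set. The share of 17.1% stands beside 4.57% of all tested genes for higher and 12.5% for lower. The share also rises with level, to 15.3% of tested genes with a mean of 1000 to 10000 (4 of 17 members) and 38.3% of those above (1 of 2 members). Most of the 6 have means in these bands. The separation held with TMM scaling (6 of 35) and ended with equal totals (0 of 35, where 1.13% of tested genes were apart and higher) and with quantile normalization (0 of 35, where 6.39% were). The 6 log2 fold changes stayed above 0 in all of these. With equal totals 1 member, Mvd, had every CNO library below every saline library, as did 21.3% of tested genes. With CNO 3 left out, 11 members were apart and higher and 0 lower, where 9.38% of tested genes were higher and 21.6% lower. Without CNO 1 the counts were 8 higher and 3 lower (Msmo1, Elovl5 and Fads2), where 10.9% and 18.3% of tested genes were. Without CNO 2 they were 9 higher and 4 lower (Mvd, Srebf2, Stard4 and Tm7sf2), where 9.73% and 27.3% were. The 6 named here were among the higher ones each time.

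**Figure D1:**
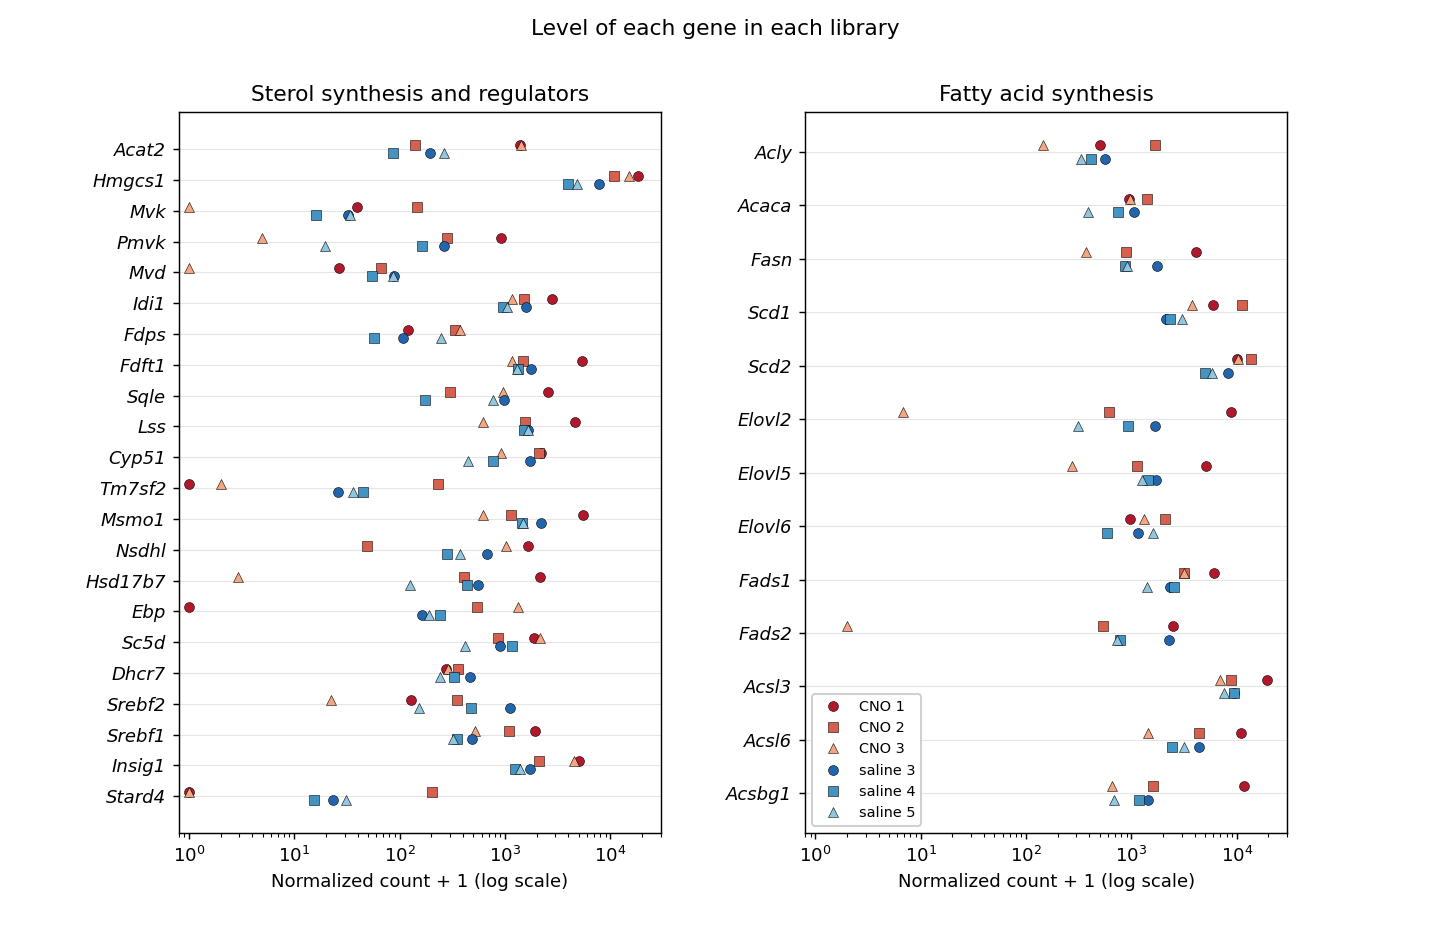
Normalized count plus 1 (log scale) of each of the 35 genes in each of the 6 libraries, in pathway order, with CNO libraries in red shades and saline libraries in blue shades. Hmgcs1, Srebf1, Insig1, Scd1, Scd2 and Fads1 have all CNO points to the right of all saline points, while Elovl2, Fads2, Hsd17b7 and Pmvk spread over more than 2 powers of 10 through CNO 3.

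The entry into sterol synthesis had its clearest difference at Hmgcs1, the HMG-CoA synthase of the cytosol. Hmgcs1 (chromosome 13, 119690379 to 119708260, GRCm38, protein-coding) stood at 18315, 10949 and 15092 normalized counts in CNO 1, 2 and 3. In saline 3, 4 and 5 it stood at 7757, 3947 and 4839. The groups averaged 14790 ± 3693 and 5514 ± 1993 (SD, n = 3 each), with the CNO mean 2.68 times the saline mean, and the lowest CNO library lay above the highest saline library. Its log2 fold change was 1.45 ± 0.38 (SE; limma adjusted p = 0.488), and 0.75 with equal totals and 0.72 with quantile normalization. Acat2, the cytosolic thiolase one step before it, was at 1378, 139 and 1409 in CNO and at 193, 85.6 and 263 in saline. CNO 1 and CNO 3 thus stood more than 5 times above every saline library, while CNO 2 lay within the saline range. The log2 fold change of Acat2 was 1.98 ± 1.12 (adjusted p = 0.578).

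The steps from mevalonate to farnesyl diphosphate were thinly covered and scattered. Mvk (mevalonate kinase) had 38.0, 145 and 0 normalized counts in CNO and 31.2, 15.2 and 32.7 in saline. Mvd (mevalonate diphosphate decarboxylase) had 25.4, 65.1 and 0 in CNO and 86.7, 53.6 and 85.6 in saline. Pmvk (phosphomevalonate kinase) had 913, 279 and 3.9 in CNO and 265, 161 and 18.6 in saline. All 3 kinase and decarboxylase transcripts had their lowest value of the 6 libraries in CNO 3, where 0, 0 and 4 reads of Mvk, Mvd and Pmvk were counted. Their log2 fold changes of -0.54, -2.63 and 0.19 have standard errors of 2.27, 2.14 and 2.04. Idi1, the isomerase of isopentenyl diphosphate, was steadier at 2798, 1511 and 1175 in CNO and 1580, 963 and 1044 in saline, with a log2 fold change of 0.55 ± 0.58. Fdps, the farnesyl diphosphate synthase, was at 118, 336 and 373 in CNO and 108, 56.0 and 245 in saline.

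From squalene to the demethylation of lanosterol, 5 enzymes each had their highest value of the 6 libraries in CNO 1. Fdft1, the squalene synthase, was at 5371, 1470 and 1176 in CNO and at 1774, 1340 and 1313 in saline. Sqle, the squalene epoxidase and a rate-limiting step, was at 2582, 299 and 961 in CNO and at 970, 174 and 764 in saline. Lss, the lanosterol synthase, was at 4657, 1558 and 617 in CNO and at 1647, 1508 and 1658 in saline. For Lss the saline libraries differed by less than 10%, while CNO 1 lay above and CNO 3 below all of them. For Msmo1, a sterol-C4 methyl oxidase, CNO 1 lay above all saline libraries, and CNO 2 and CNO 3 both lay below them. It was at 5468, 1135 and 613 in CNO beside 2204, 1445 and 1488 in saline. Cyp51, the lanosterol demethylase, was at 2214, 2121 and 920 in CNO and at 1717, 776 and 444 in saline. None of these 5 differed between groups beyond its spread, with adjusted p from 0.645 (Cyp51) to 0.988 (Lss).

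Among the last steps to cholesterol, some enzymes were nearly missing from single CNO libraries and others were even. Hsd17b7, the sterol 3-keto reductase, was at 2160 and 404 in CNO 1 and 2 and had 2 reads in CNO 3, beside 554, 436 and 124 in saline. Ebp, the sterol isomerase, was the reverse, with 0 reads in CNO 1, 542 and 1316 in CNO 2 and 3, and 160, 239 and 188 in saline. Nsdhl, the decarboxylating dehydrogenase that works with Hsd17b7, was at 1635, 48.1 and 1025 in CNO and 680, 279 and 373 in saline. Each of these 3 was thus lowest in a different CNO library, and in that library it lay below every saline library. Tm7sf2, a sterol-C14 reductase, had 229 in CNO 2 and 0 and 1 read in CNO 1 and 3, beside 24.9, 44.0 and 35.2 in saline. Sc5d (sterol-C5 desaturase) was at 1898, 855 and 2147 in CNO and 903, 1161 and 419 in saline. Dhcr7, which makes cholesterol from 7-dehydrocholesterol, was the evenest of all 35, at 275, 358 and 286 in CNO and 467, 324 and 239 in saline, a 1.96-fold range over the 6 libraries.

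The regulators differed from one another in direction, and 0 of them passed the test. Insig1 (chromosome 5, 28071363 to 28078662, protein-coding), itself a target of SREBP, was at 5029, 2092 and 4525 in CNO and at 1731, 1240 and 1390 in saline. It averaged 3882 ± 1570 and 1453 ± 251.6, without overlap, with a log2 fold change of 1.33 ± 0.52 (limma adjusted p = 0.491), and 0.63 with equal totals and 0.72 with quantile normalization. Srebf1 (chromosome 11, 60199089 to 60222581, protein-coding) was at 1927, 1089 and 515 in CNO and at 490, 351 and 318 in saline. Its lowest CNO value lay just above its highest saline value, and the log2 fold change was 1.43 ± 0.77 (adjusted p = 0.559), and 0.73 with equal totals. Srebf2, by contrast, had values of 127, 351 and 21.3 in CNO and 1103, 476 and 153 in saline, with a log2 fold change of -2.11 ± 1.33 (adjusted p = 0.606). For Srebf2 the CNO range lay lower and overlapped the saline range through CNO 2 and saline 5. Stard4, a carrier of sterol between membranes, was read in CNO 2 (201) and at 0 in CNO 1 and 3, beside 22.1, 14.4 and 29.7 in saline.

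In the fatty acid set, the desaturases of palmitate and stearate stood apart while the synthase itself did not. Scd1 (chromosome 19, 44394455 to 44407879) was at 5912, 11331 and 3759 in CNO and at 2134, 2302 and 3043 in saline, 7001 ± 3901 against 2493 ± 483.6. Its log2 fold change was 1.36 ± 0.48 (limma adjusted p = 0.488), and 0.66 with equal totals and 0.63 with quantile normalization. Scd2 (chromosome 19, 44293674 to 44306864), the form most abundant in brain, was at 10155, 13563 and 10365 in CNO and at 8196, 4987 and 5826 in saline. Its log2 fold change was 0.86 ± 0.35 (limma adjusted p = 0.50), and 0.16 with equal totals and 0.10 with quantile normalization. The CNO and saline libraries did not overlap for either Scd gene. These genes are related copies in a cluster on chromosome 19, and how reads matching both were counted is not given in the sources used here.

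Synthesis of palmitate gave overlapping groups at each enzyme. Acly, which makes acetyl-CoA from citrate, was at 499, 1691 and 143 in CNO and 564, 411 and 334 in saline. Acaca, the acetyl-CoA carboxylase, was at 938, 1391 and 973 in CNO and 1060, 744 and 389 in saline. Fasn, the fatty acid synthase, was at 4074, 892 and 371 in CNO and 1758, 873 and 912 in saline. Fasn had a mean of 1779 ± 2004 in CNO and 1181 ± 500 in saline, yet a log2 fold change of -0.02 ± 0.85, and only its CNO 1 value lay above the saline range. Leaving out CNO 3 gave 0.77 and leaving out CNO 1 gave -0.96.

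Elongation and desaturation of polyunsaturated fatty acids split within single libraries. Fads1, the delta-5 desaturase (chromosome 19, 10182888 to 10196877), was at 6149, 3159 and 3131 in CNO and at 2300, 2550 and 1418 in saline, without overlap. Its log2 fold change was 0.96 ± 0.49 (adjusted p = 0.555), and 0.26 with equal totals and 0.30 with quantile normalization. Fads2, the delta-6 desaturase that acts before it and lies beside it on the same chromosome (10062765 to 10101746), was at 2472 and 534 in CNO 1 and 2 and had 1 read in CNO 3. In saline Fads2 was at 2281, 773 and 721, so CNO 3 held Fads1 above saline and Fads2 almost not at all. Elovl2, which lengthens long polyunsaturated chains, went from 8841 in CNO 1 to 614 in CNO 2 and 5.8 (6 reads) in CNO 3, beside 1663, 926 and 310 in saline. Elovl5 was at 5088, 1140 and 271 in CNO and 1714, 1422 and 1258 in saline. Elovl6, which lengthens palmitate, was at 968, 2093 and 1307 in CNO and 1167, 592 and 1592 in saline.

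Acyl-CoA synthetases, which activate fatty acids for use, differed in how far they spread, from a 2.76-fold range over the 6 libraries for Acsl3 to 17.8-fold for Acsbg1. Acsl3 was at 19211, 8905 and 6953 in CNO and at 9430, 9338 and 7531 in saline, with a log2 fold change of 0.28 ± 0.41. Acsl6 was at 10899, 4427 and 1424 in CNO and at 4355, 2408 and 3173 in saline. Acsbg1, known as a marker of astrocytes, was at 11626, 1609 and 652 in CNO and at 1431, 1171 and 683 in saline. All 3 were highest in CNO 1 and lowest in CNO 3, as was the summed level of the astrocyte markers.

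**Figure D2:**
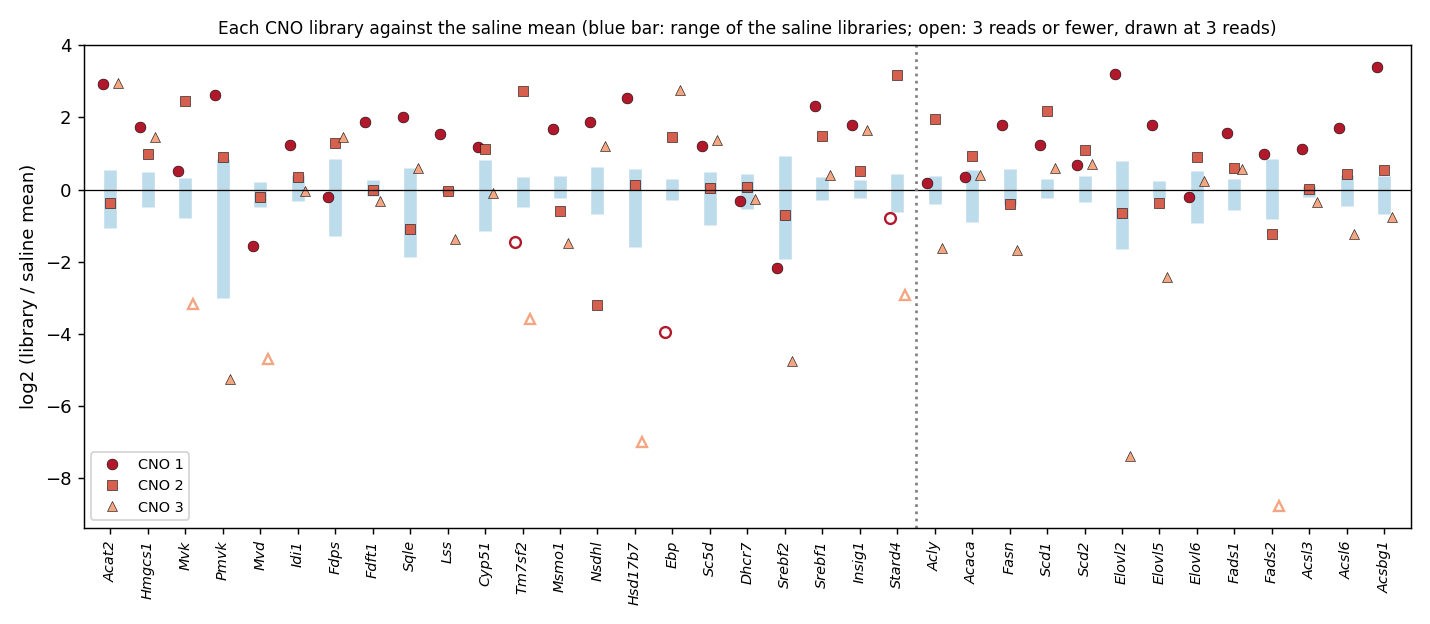
log2 ratio of each CNO library to the saline mean for each gene, with the blue bar spanning the 3 saline libraries and open symbols for values of 3 reads or fewer, drawn at 3 reads. CNO 1 lies above the saline range for most genes and CNO 3 far below it for Hsd17b7, Elovl2 and Fads2, while Hmgcs1 and Insig1 have all 3 CNO symbols above the bar.

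The CNO libraries differed from one another more than the saline libraries did. The SD of log2 values was larger in CNO for 17 of 22 sterol genes and 10 of 13 fatty acid genes (77.1% of members), near the 80.6% of all tested genes. Its median was 1.56 in CNO and 0.50 in saline over the members. CNO 1 was the highest CNO library for 20 of 35 members (57.1%), beside 30.7% of tested genes, and CNO 3 the lowest for 21 (60.0%), beside 25.5%. The order CNO 1 above 2 above 3 held for 8 of 22 sterol genes (36.4%) and 8 of 13 fatty acid genes (61.5%), and for 15.8% of tested genes. Values of 3 reads or fewer occurred in CNO 1 for Stard4, Ebp and Tm7sf2 and in CNO 3 for Mvd, Mvk, Stard4, Hsd17b7, Tm7sf2 and Fads2. They occurred for 0 members in CNO 2 and in each saline library. Fads2 averages over 1000 normalized counts, and of tested genes with a mean of 1000 to 10000 only 0.422% had so few reads in CNO 3.

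Over the whole of each set, the median log2 fold change depended on the model and the scaling. With limma it was 0.13 for the sterol set, with 13 genes above 0 and 9 below, and 0.35 for the fatty acid set, with 9 above and 4 below. All 35 genes passed the filter on a mean of at least 10. Of all tested genes 31.7% were above 0. Among genes with a mean of 1000 to 10000 the medians were 0.55 for 7 sterol genes and 0.39 for 10 fatty acid genes, beside 0.33 for all 2132 tested genes of that level. Without CNO 1 the medians were -0.10 and -0.03, and without CNO 3 they were 0.80 and 0.92, with all 13 fatty acid genes above 0. Over all tested genes the median was -0.45 without CNO 1 and -0.81 without CNO 3, where 34.5% of tested genes were above 0. With equal totals both medians were below 0, at -0.55 and -0.35, beside -1.52 over all tested genes. The count models, which compare mean levels, gave higher medians, 1.02 and 0.76 with DESeq2 and 0.89 and 0.57 with edgeR, and 31 of 35 members above 0 in each. The median of all tested genes was then 0.00 with DESeq2 and -0.11 with edgeR. With limma-voom the medians were -0.03 and 0.30, with 17 of 35 members above 0, beside -0.85 over all tested genes. On the plain scale, the CNO mean exceeded the saline mean for 19 of 22 and 12 of 13 genes, and for 6510 of the 13028 tested genes. Sign and size therefore depended on the scale and on single CNO libraries.

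**Figure D3:**
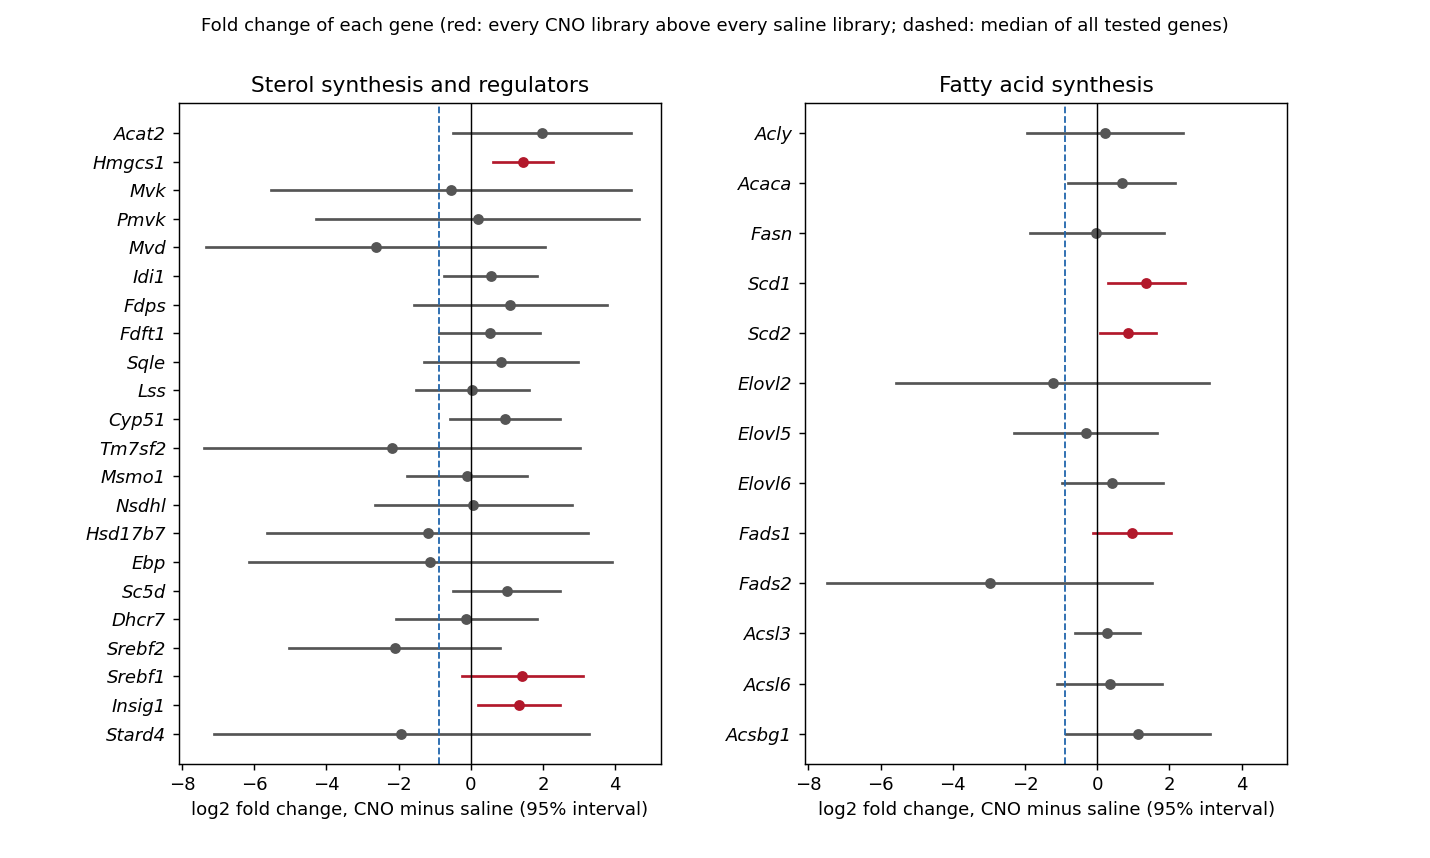
log2 fold change of each gene, CNO minus saline, with its 95% interval from limma. The intervals of Hmgcs1, Insig1, Scd1 and Scd2 lie above 0, the median of all tested genes (dashed) is at -0.89, and the widest intervals belong to genes with 3 reads or fewer in 1 or 2 CNO libraries.

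Compared per kilobase of exon, the same few genes led in both groups. In saline, Acsl3 was the most abundant member at 2010 normalized counts per kilobase, followed by Hmgcs1 at 1200, Scd2 at 1160, Scd1 at 510 and Insig1 at 470. In CNO the order was Hmgcs1 at 3220, Acsl3 at 2680, Scd2 at 2080, Scd1 at 1430 and Acsbg1 at 1280. The place of Acsbg1 rests on CNO 1, since it was at 3230, 446 and 181 per kilobase in CNO 1, 2 and 3, while Insig1 was at 1630, 676 and 1460. Stard4, Tm7sf2 and Mvk were the lowest 3 in saline, at 3.95, 7.89 and 9.86 per kilobase. Hmgcs1 made up 35.8% of the summed level of the sterol set, and Acsl3 23.5% of that of the fatty acid set. Exon lengths are unions over GENCODE isoforms, so levels of genes with many isoforms are understated.

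The summed level of the fatty acid genes kept a similar quotient to the astrocyte marker sum in the 6 libraries, while their library orders differed. The astrocyte sum was lowest in CNO 3 (181876 normalized counts), where the fatty acid sum lay above those of saline 4 and saline 5. The fatty acid set summed to 86830, 51350 and 29350 normalized counts in CNO 1, 2 and 3 and to 38050, 28500 and 27190 in saline 3, 4 and 5. Divided by the sum of the 12 astrocyte markers, this was 13.9%, 13.5% and 16.1% in CNO and 12.6%, 14.2% and 12.4% in saline. The sum itself varied 3.19-fold over the 6 libraries and the quotient 1.3-fold. Without Acsl3 the quotient varied 1.37-fold. Quotients to the other marker lists varied from 3.56-fold (neuron) to 34.0-fold (endothelial), with 7.71-fold for oligodendrocyte and 4.53-fold for microglia and macrophage markers. The marker sums themselves varied 3.44-fold for astrocyte, 2.04-fold for neuron and 19.5-fold for endothelial markers. For oligodendrocyte markers this was 6.64-fold, and for microglia and macrophage markers 2.54-fold. A quotient takes in the spread of its marker sum, so these ranges do not rank the lists by their link to the set. Single members did not share this evenness, since the quotient to the astrocyte sum varied 1.99-fold for Acsl3, 3.51-fold for Scd2, 5.97-fold for Acsbg1 and 1420-fold for Fads2. The quotient was chosen after the sums were seen, and it is given as a description without a test.

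Sterol genes kept a like quotient in 5 libraries and left it in CNO 3. The sterol set summed to 56930, 26180 and 32180 in CNO and to 24470, 15090 and 15460 in saline. Divided by the astrocyte marker sum this was 9.11% and 6.88% in CNO 1 and 2, 8.12%, 7.54% and 7.05% in saline, and 17.7% in CNO 3. CNO 3 also had the lowest astrocyte sum and the second highest oligodendrocyte sum of the 6 libraries. Its microglia and macrophage (214277), oligodendrocyte precursor (11040) and endothelial (5428) marker sums were the highest of the 6. CNO 2, with the highest oligodendrocyte sum, had the lowest sterol quotient (6.88%). The part of any cell type in the quotient was not tested. On the normalized scale the sterol sums of the CNO libraries all exceeded those of the saline libraries. Without Hmgcs1 the groups overlapped, at 38610, 15230 and 17090 in CNO and 16710, 11140 and 10620 in saline. As a share of all reads the groups overlapped, at 0.345%, 0.184% and 0.194% in CNO and 0.248%, 0.157% and 0.161% in saline. Oligodendrocyte markers were higher in all 3 CNO libraries too, and their part in the levels of Hmgcs1, Insig1, Srebf1, Scd1, Scd2 and Fads1 was not tested. Within CNO, Scd1 and Scd2 were highest in CNO 2, where the oligodendrocyte sum was the highest of the 3. Hmgcs1, Insig1, Srebf1 and Fads1 were highest in CNO 1, where it was the lowest of the 3. Of the CNO libraries, Scd1 was lowest in CNO 3 and Scd2 in CNO 1. These orders of 3 libraries were not tested.

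**Figure D4:**
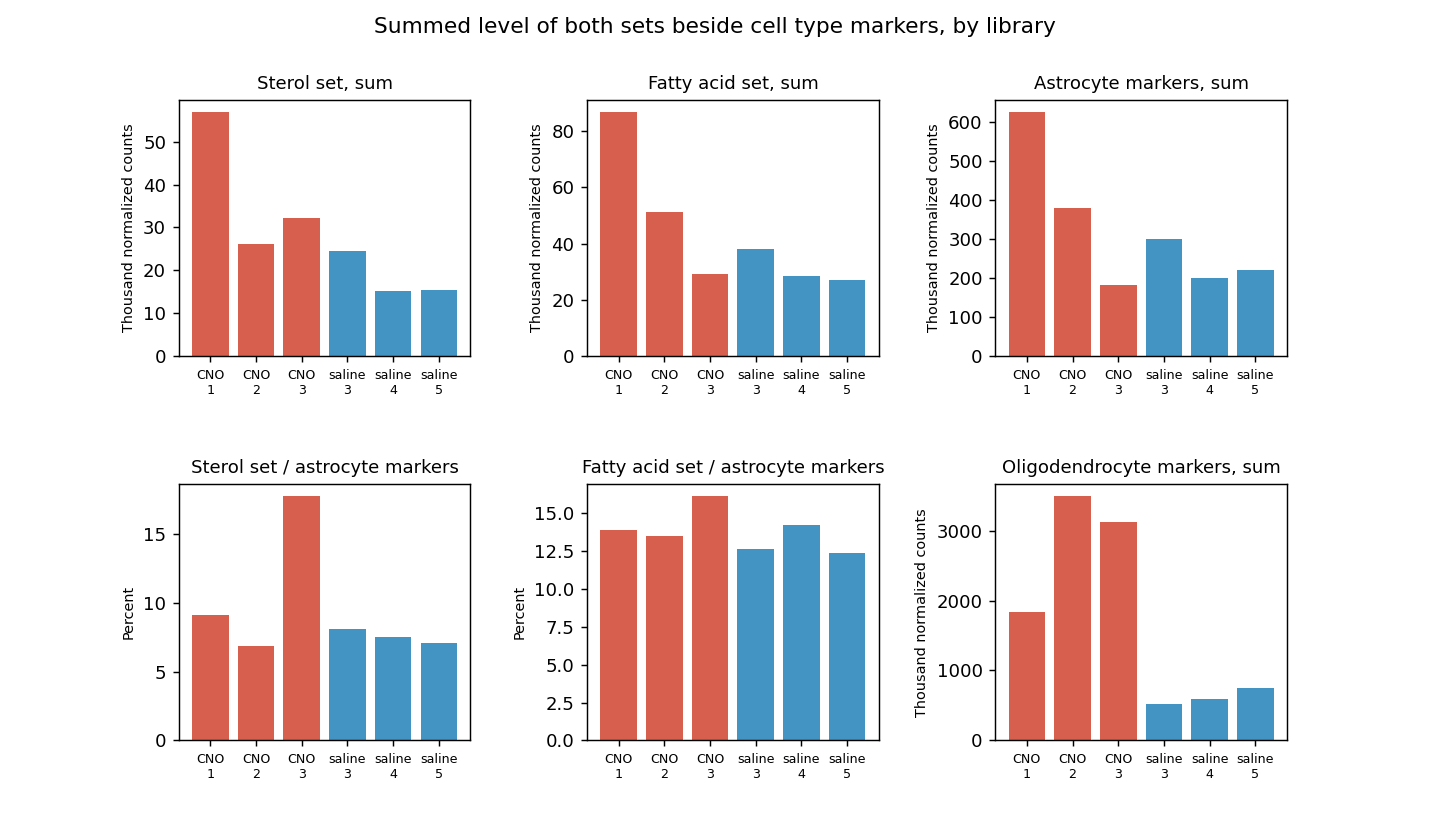
Summed level of the sterol set, the fatty acid set, astrocyte markers and oligodendrocyte markers by library in units of 1000 normalized counts, and both sets as a percent of the astrocyte marker sum, with bars from 0. The fatty acid quotient stays between 12.4% and 16.1%, the sterol quotient is 17.7% in CNO 3 and at most 9.11% elsewhere, and oligodendrocyte markers are higher in all CNO libraries.

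Other genes of the same pathways gave no calls either. Over all tested genes limma called 0.0154%, and the median log2 fold change was -0.89. At an unadjusted p under 0.05 limma had 2.28% of tested genes higher and 7.25% lower. Of 27 tested further sterol genes limma called 0, with 0 higher and 1 lower at an unadjusted p under 0.05 and a median log2 fold change of -0.61. The one was Scap, the escort protein that carries SREBP to its activating proteases, at 38.0, 618 and 0 in CNO and 598, 1025 and 809 in saline (log2 difference -4.78 ± 1.98, limma adjusted p = 0.502). Of 35 tested further fatty acid genes 0 were called, with 0 higher and 4 lower at an unadjusted p under 0.05 and a median of -0.06. Mlxipl and Mlx, partners in the sugar-sensing factor ChREBP, were lower in CNO without overlap, as were 21.3% of tested genes of their level (means of 10 to 100). Mlxipl was at 0, 14.8 and 1.0 in CNO and 87.9, 220 and 86.6 in saline, and Mlx at 0, 12.6 and 0 beside 78.8, 84.8 and 42.3. Elovl7 was also lower without overlap, as were 10.0% of tested genes of its level (means of 100 to 1000). It was at 0, 670 and 132 beside 900, 928 and 888, and the citrate carrier Slc25a1 overlapped at 4.2, 158 and 2.9 beside 512, 315 and 131. Adjusted p for these 4 ran from 0.491 to 0.523. Of 11 genes of myelin lipid synthesis 0 were called and 1 was higher at an unadjusted p under 0.05. That was Ugt8a, which makes the galactolipid of myelin and is also on the oligodendrocyte list, at 3465, 8568 and 9487 in CNO and 1369, 1655 and 3705 in saline (log2 difference 1.69 ± 0.55, limma adjusted p = 0.488).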

How the data were processed

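RNA-seq of 6 libraries of sorted astrocytes, made from 10 ng of RNA each per the labels, was analysed from the deposited table of normalized counts. The submitters' processing notes name STAR 2.5.0a, DESeq2 1.20.0, Trimmomatic 0.4, FastQC 0.10.1, MultiQC 0.9 and the mm10 build. How reads were counted, with which annotation and strand setting, is not given in the sources used here. The deposited values are a signal, gene reads that the authors scaled with a size factor for each library. All values (100%) were whole multiples of a library's step within 1e-06 reads, which gave the whole reads back. Recovered totals were 3908076, 19224186 and 17102657 reads in CNO 1, 2 and 3 and 17389282, 12010901 and 19052161 in saline 3, 4 and 5, with no molecular identifiers. All columns matched a library, with 0 left over.

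Normalized counts plus a pseudocount of 1 were put on the log2 scale and tested with limma 3.58.1 (R 4.3.3), with a variance trend, 2-sided, over the 13028 genes averaging 10 or more, with Benjamini-Hochberg adjustment at 0.05. Fold changes are differences of mean log2 values, so they can differ in sign from ratios of means. Nothing says that libraries are separate animals, so the p-values cover the spread among these libraries only, which may be technical. edgeR 4.0.16, DESeq2 1.42.0 and limma-voom ran on the recovered reads. The method was run on simulated counts in which all genes and both groups shared the same setting of spread. In these data the median SD of log2 values over all tested genes was 2.15 in CNO and 0.81 in saline. That run therefore does not show how often changes would be found here. Members and gene lists were chosen with earlier results of these data known. Members with an unadjusted p under 0.05 or without overlap, and 12 set ones, were to be described in full, with up to 4 further genes per list by smallest p. The library values of the other members are printed as well. Exon lengths and gene positions are from GENCODE mouse release M21 (GRCm38, the assembly of mm10), which matched all 35 symbols. Promoter windows are RefSeq's, on GRCm38.p6, and motifs were chosen after counts were seen. Figures were drawn with matplotlib 3.10.9.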

Additional observations from a re-analysis of the deposited data

How the results depend on the processing

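The test called 0 members in either set under every alternative run. Chosen after the data were seen were equal totals and the counts of members with every CNO library above every saline library. That count of 6 became 0 with equal totals (1.13% of tested genes) and 0 with quantile normalization (6.39%). It ran from 6 to 11 with 1 library left out, 11 being without CNO 3, while the share of tested genes ran from 5.86% to 10.9%. Members below every saline library then numbered 0 to 4, where 16.1% to 27.3% of tested genes were lower. With equal totals the number was 1 (Mvd), where 21.3% of tested genes were lower. Over all genes the 2 calls became 249 in DESeq2 (69 higher, 180 lower), 16 in edgeR without a filter and 16 in limma-voom. They became 0 in edgeR with the same genes, with a mean filter of 50, a read in every library, no variance trend, equal totals, quantile normalization, and any 1 library left out (0 to 0). No paired analysis was possible because the groups share only replicate number 3.

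Signs of uncalled members turned as follows, and the cause was not tested beyond the zeros and single libraries given above. DESeq2, edgeR with the same genes and edgeR without a filter gave Msmo1 0.49, 0.28 and 0.35, Mvk 1.22, 1.11 and 1.19, Stard4 1.61, 1.54 and 1.63, Hsd17b7 1.2, 0.98 and 1.05, Ebp 1.66, 1.60 and 1.69, Tm7sf2 1.15, 1.09 and 1.19, Fasn 0.59, 0.38 and 0.45, Elovl2 1.71, 1.46 and 1.53, and Elovl5 0.57, 0.35 and 0.42. Equal totals gave Idi1 -0.15, Fdft1 -0.18, Lss -0.66, Nsdhl -0.63, Pmvk -0.48, Acaca -0.02, Acly -0.48, Elovl6 -0.28, Acsl3 -0.42 and Acsl6 -0.35. Quantile normalization gave Fdft1 -0.06, Lss -0.52, Dhcr7 0.03, Nsdhl -0.58, Mvk 2.34, Stard4 1.44, Ebp 0.13, Tm7sf2 1.45, Acsl3 -0.48 and Acsl6 -0.31. limma-voom gave Lss -0.43, Nsdhl -0.86, Pmvk -0.04, Acsl3 -0.01 and Acsl6 -0.08. An Xist covariate gave Msmo1 0.40, Fasn 0.54 and Elovl5 0.22, TMM scaling gave Lss -0.01, and a pseudocount of 8 gave Mvk 0.20.

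With 1 library left out, values ran from -0.15 to 0.94 for Fdft1, -0.71 to 0.75 for Lss, -0.35 to 0.13 for Dhcr7, -1.01 to 0.57 for Msmo1, -0.89 to 1.64 for Nsdhl, -2.06 to 1.54 for Mvk, -1.35 to 2.42 for Pmvk, -3.18 to 1.58 for Hsd17b7 and -3.06 to 2.12 for Ebp. In the fatty acid set they ran from -0.96 to 0.77 for Fasn, -0.67 to 1.11 for Acly, -3.60 to 1.57 for Elovl2, -1.38 to 0.73 for Elovl5, -5.06 to 0.09 for Fads2, -0.15 to 0.58 for Acsl3, -0.36 to 1.11 for Acsl6 and -0.03 to 2.05 for Acsbg1. CNO 1 had the fewest reads, and 30.5% of tested genes with a mean of 100 to 1000 had 3 reads or fewer in it. The share was 3.74% in CNO 2 and 13.5% in CNO 3, and 0.844% to 1.23% in saline. Genes with a read numbered 8618, 12820 and 10883 in CNO 1, 2 and 3, and 14311, 14491 and 14141 in saline 3, 4 and 5. The part of depth in this was not tested.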

Other observations

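Among the further genes of lipid metabolism, 7 that the report does not name had groups without overlap, and they were picked after their values were seen. Of the 27 sterol and 35 fatty acid genes tested there, 5 in all were apart and higher and 5 lower, beside 4.57% and 12.5% of all tested genes. The share of tested genes was 15.3% for higher at means of 1000 to 10000, where Hsd17b12 and Pnpla8 lie, and 21.3% for lower at means of 10 to 100, where Fads3 lies. At means of 100 to 1000 it was 3.33% for higher, where Ggps1, Acat1 and Acsl1 lie, and 10.0% for lower, where Soat1 lies. Higher in every CNO library were Ggps1, which makes geranylgeranyl diphosphate (log2 fold change 0.60 ± 0.63), the mitochondrial thiolase Acat1 (0.95 ± 0.79), Hsd17b12 of the fatty acid elongation cycle (1.63 ± 0.78), the acyl-CoA synthetase Acsl1 (0.93 ± 0.83) and the phospholipase Pnpla8 (1.12 ± 0.52). Lower in every CNO library were Soat1, which esterifies cholesterol (-0.68 ± 0.67), and Fads3, a gene of the desaturase family (-3.98 ± 2.12). Hsd17b12 had 4175, 1052 and 1105 normalized counts in CNO 1 to 3, beside 713, 253 and 912 for saline 3 to 5. None of the 7 passed the test, with limma adjusted p from 0.528 to 0.724.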
